A study of Bos taurus with 12 samples.

Results

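GNAS, GNB4 and P2RY2 encode an alpha subunit, a beta subunit and a receptor of G protein signalling, and their probe sets were examined in cultured bovine aortic endothelial cells under 4 kinds of flow. The members were taken by gene symbol in the probe annotation, which gave 5 probe sets: 2 for GNAS, 1 for GNB4 and 2 for P2RY2. They are 3 of the 3977 genes that the annotation names by 1 symbol. The genes had been chosen by measured values of these arrays, GNAS by its difference between the positive gradient and baseline. Which differences chose GNB4 and P2RY2 is not recorded, so all 6 comparisons between flow groups count as used. Levels and differences of the 3 genes are therefore given as descriptions, with errors and without p-values.

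The cells came from aorta, were used at passage 15 and stood under flow for 24 h in medium thickened with dextran. The flow applied a wall shear stress (WSS), the drag of the fluid on the cell surface, that was uniform at 3.5 Pa (baseline), uniform at 28.4 Pa (high WSS), or changing along the flow in a negative or a positive gradient. Each group had 3 arrays, numbered 1 to 3, and this small number bounds how precise a value can be. Whether these were separate cultures is not stated, so errors and p-values measure the spread between samples that may be technical, and the local stress in the gradient chambers is not stated either. The record numbers of the gradient samples and of the uniform-flow samples form separate runs, so the flow and the set of records cannot be told apart when a gradient is set against baseline or high WSS.

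A receptor of this class passes a signal from outside the cell to a G protein, which is built of an alpha subunit and a paired beta and gamma subunit. P2RY2 encodes the P2Y2 receptor, which binds extracellular ATP and UTP and couples to alpha subunits of the Gq family. In endothelium it is known for the calcium response to ATP that cells release under flow. GNAS encodes the stimulatory alpha subunit, which activates adenylyl cyclase and so raises cyclic AMP, and its locus also gives other products, among them the secretory protein NESP55, listed by the reference annotation as a synonym of the gene. GNB4 encodes one of the beta subunits, which hold the alpha subunit in its resting state and signal on their own once freed.

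All values are log2 RMA values of a probe set, so a difference of 1 is a doubling. The array median lay between 5.65 and 5.71. One array stood apart from its group: high WSS replicate 3 was nearest of all to positive gradient replicate 3, with a root mean square difference of 0.197, the smallest of the 66 pairs. Its distances to its own group were 0.441 and 0.442. Whether its label is right cannot be checked here, and the high WSS means include it unless stated; the values of the 3 genes at high WSS are also given without it. Markers of endothelium were present, with 7 of 12 listed genes measured and this mean moved with the groups: it lay between 10.09 and 10.15 on the baseline arrays, 10.26 and 10.36 for the positive and 10.39 and 10.53 for the negative gradient, and 9.999 and 10.32 at high WSS. Among them TIE1 had group means of 8.64 at baseline, 9.23 at high WSS, 9.82 under the negative and 9.88 under the positive gradient, whereas ERG, an endothelial transcription factor, had 10.01, 9.37, 9.86 and 9.39. The part of this in the results was not tested. Of the other lists, 2 of 7 smooth muscle markers, 2 of 7 fibroblast markers and 1 of 8 leukocyte markers were measured.

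Both probe sets of P2RY2 were lowest at baseline and higher under each of the other flows. At the brighter probe set the baseline arrays 1, 2 and 3 read 5.89, 6.10 and 6.11. The high WSS arrays read 6.76, 6.53 and 7.54, the negative gradient arrays 7.02, 7.21 and 7.02, and the positive gradient arrays 6.92, 7.31 and 7.32. All 9 arrays of the other flows lay above all 3 baseline arrays. The group means were 6.04 ± 0.12 (SD, n = 3) at baseline, 6.94 ± 0.53 at high WSS, 7.08 ± 0.11 under the negative gradient and 7.18 ± 0.23 under the positive gradient. High WSS and both gradients overlapped with each other, and the largest difference between them was 0.24 (SE 0.218, positive gradient minus high WSS). High WSS overlapped through replicate 3 alone: without it the positive and the negative gradient lay wholly above high WSS, by 0.54 and 0.44 on average. In bulk samples like these, fewer cells that express a gene and less RNA per cell cannot be told apart.

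The dimmer P2RY2 probe set gave the same order of groups. It read 5.23, 5.25 and 4.94 at baseline, 5.47, 5.60 and 6.42 at high WSS, 6.13, 6.01 and 6.0 under the negative gradient and 6.05, 6.12 and 6.24 under the positive gradient. Here too no array of another flow fell to the baseline range. Its means were 5.14 ± 0.17 (SD, n = 3), 5.83 ± 0.52, 6.05 ± 0.069 and 6.14 ± 0.095 in that order. The positive and the negative gradient stood above high WSS by 0.31 and 0.22, and by 0.60 and 0.51, without overlap, when high WSS replicate 3 was left out. Over the 12 arrays the P2RY2 probe sets correlated at r = 0.943, and at 0.782 after the group means were removed. The second value leans on high WSS replicate 3, which deviated most from its group mean at both probe sets, by 0.60 and 0.59. Both were read on the same arrays from the same gene.

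Against baseline, P2RY2 at its brighter and dimmer probe set stood higher by 1.15 (SE 0.218) and 1.0 (SE 0.205) for the positive gradient. For the negative gradient the differences were 1.05 and 0.91, with the same errors. Under high WSS they were 0.91 and 0.69, and 0.61 and 0.39 without high WSS replicate 3. Within the replicate numbers 1, 2 and 3, the positive gradient minus baseline was 1.02, 1.21 and 1.21 at the brighter probe set, and high WSS minus baseline was 0.86, 0.43 and 1.43. P2RY2 thus had a higher value than baseline in 3 of 3 numbers for each flow.

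**Figure D1:**
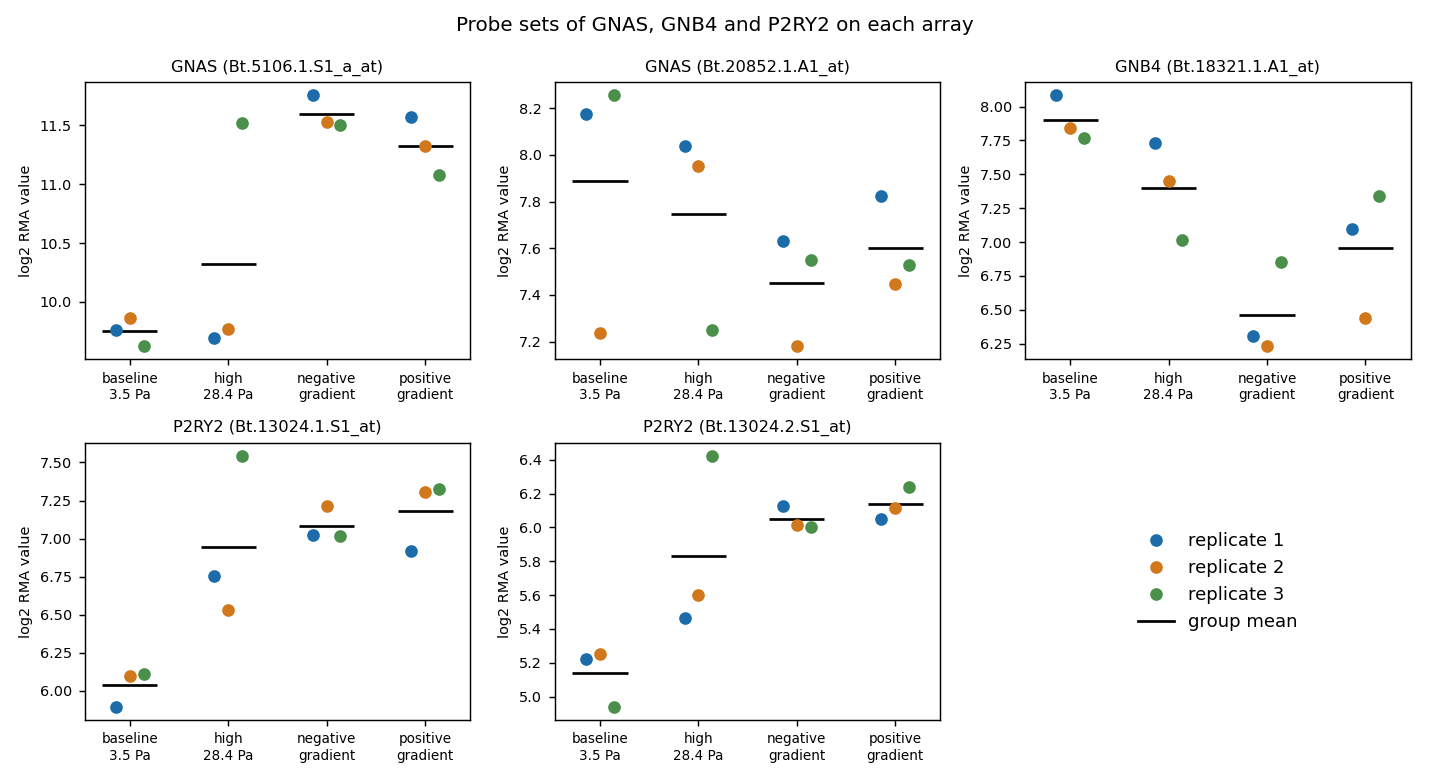
Each panel plots the log2 RMA value (vertical axis) of 1 probe set on each of the 12 arrays, by flow group (horizontal axis); points are arrays coloured by replicate number and black bars are group means. P2RY2 is lowest at baseline, the brighter GNAS probe set splits the gradient arrays and high WSS replicate 3 from the other 5, and GNB4 is highest at baseline.

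GNAS was measured by 2 probe sets that did not give the same picture. The brighter read 9.76, 9.87 and 9.62 at baseline and 9.69, 9.77 and 11.52 at high WSS. Under the negative gradient it read 11.76, 11.53 and 11.50, and under the positive gradient 11.57, 11.32 and 11.08. All 6 gradient arrays and high WSS replicate 3 lay at 11.08 or above, and the other 5 arrays lay at 9.87 or below, with no array between. The group means were 9.75 ± 0.12 (SD, n = 3) at baseline, 10.3 ± 1.03 at high WSS, 11.3 ± 0.25 for the positive and 11.6 ± 0.14 for the negative gradient.

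At this probe set GNAS stood higher than baseline by 1.85 (SE 0.360, a 3.6-fold difference) with the negative gradient and by 1.58 (2.98-fold) with the positive. These values exceeded at least 99.9% of the signed differences over all probe sets in each comparison. GNAS was chosen by its difference with the positive gradient, so these ranks describe its size and are no support. High WSS stood 0.58 above baseline with all arrays and −0.019 without high WSS replicate 3. Against high WSS the negative and the positive gradient were higher by 1.27 and 1.0, and by 1.87 and 1.6 without that array. The gradients overlapped and differed by −0.27 (SE 0.360, positive minus negative), although the positive gradient was the lower in 3 of 3 replicate numbers.

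The dimmer GNAS probe set showed no group apart from the rest. It read 8.17, 7.23 and 8.26 at baseline, 8.04, 7.95 and 7.25 at high WSS, 7.63, 7.18 and 7.55 under the negative gradient, and 7.82, 7.45 and 7.53 under the positive gradient. Every pair of groups overlapped with all arrays in. The order of means, from 7.45 under the negative gradient through 7.60 and 7.75 to 7.89 at baseline, ran opposite to that of the brighter probe set, and no neighbours in it differed beyond their SDs (0.20 to 0.57). The place of baseline in that order rests on high WSS replicate 3: without it high WSS had a mean of 7.995, above baseline, and lay wholly above both gradients. At the brighter probe set high WSS then had 9.73, just under baseline, so the orders of the probe sets stayed opposite. The differences from baseline were −0.44 and −0.29 (SE 0.269) under the negative and the positive gradient and −0.14 at high WSS, which turned to 0.11 without that array. The GNAS probe sets correlated at −0.626 over the 12 arrays. A statement about GNAS from these arrays therefore holds for 1 of its 2 probe sets, and which products of the locus each one detects is not given in the sources used here.

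GNB4, measured by 1 probe set, ran the other way and was highest at baseline. It read 8.09, 7.84 and 7.76 there and 7.73, 7.45 and 7.02 at high WSS. Under the positive gradient it read 7.10, 6.44 and 7.34, and under the negative gradient 6.30, 6.23 and 6.85. Baseline lay above every other array, though only by 0.030 over the highest high WSS array. The means fell into the order 7.90 ± 0.17 (SD, n = 3) at baseline, 7.40 ± 0.36 at high WSS, 6.96 ± 0.46 for the positive and 6.46 ± 0.34 for the negative gradient. High WSS overlapped with the positive gradient, and the positive with the negative gradient, so among the 3 groups other than baseline the span from high WSS to the negative gradient alone was free of overlap, by 0.17. Without high WSS replicate 3, high WSS lay wholly above the positive gradient too.

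For GNB4 the negative gradient stood below baseline by −1.44 (SE 0.245, a 2.71-fold difference), with −1.78, −1.62 and −0.91 within the replicate numbers 1, 2 and 3. The positive gradient stood at −0.94 and high WSS at −0.50, or −0.30 without high WSS replicate 3. Against high WSS the negative gradient was at −0.94 and the positive at −0.44, or −1.13 and −0.63 without that array. The positive gradient exceeded the negative by 0.50 (SE 0.245), with 0.79, 0.21 and 0.49 in the numbers 1, 2 and 3.

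**Figure D2:**
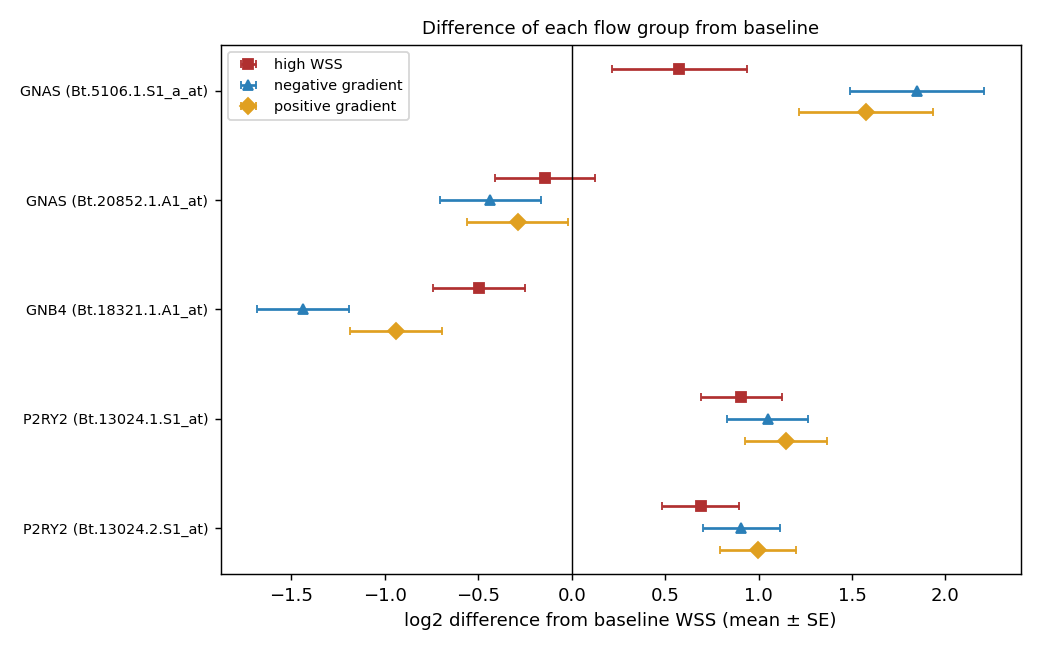
The horizontal axis is the log2 difference of a flow group from baseline WSS (mean ± SE from the linear model, 3 arrays a group) for the 5 probe sets on the vertical axis; the 3 comparisons share the baseline arrays. P2RY2 stands between 0.69 and 1.15 under every flow, the brighter GNAS probe set at 1.58 and 1.85 under the gradients and 0.58 at high WSS, and GNB4 between −1.44 and −0.50.

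Since these contrasts chose the genes, the separation of the groups is set only beside its background. Between the positive gradient and baseline, 3 of 5 probe sets lay wholly above (18.6% of all 24016 probe sets) and 1 wholly below (17.9%). For the negative gradient the counts were 3 above (14.6%) and 1 below (14.9%). For high WSS they were 2 above (9.09%) and 1 below (9.89%). Between the negative gradient and high WSS they were 0 above (7.45%) and 1 below (8.15%). Neither the positive gradient against high WSS (3.98% above and 4.56% below over all probe sets) nor the positive against the negative gradient (5.14% and 5.52%) separated any of the 5. These counts depended on high WSS replicate 3. Without it, 3 of 5 probe sets lay wholly above high WSS and 2 wholly below, with the positive gradient (21.8% and 21.1% of all probe sets) as with the negative (21.6% and 21.4%). High WSS against baseline still had 2 above (14.7%) and 1 below (15.2%).

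The values of these genes moved together with 2 of 3 controls that compare the 3′ with the 5′ end of a transcript, a sign of how far the labelled RNA extends. The GAPDH control gave a 3′ minus 5′ difference between 0.040 and 0.34 on 7 arrays, the 6 gradient arrays and high WSS replicate 3, and between 0.59 and 0.70 on the other 5. On the first 7 arrays the brighter GNAS probe set read 11.08 to 11.76, GNB4 6.23 to 7.34, and P2RY2 6.92 to 7.54 and 6.0 to 6.42. On the other 5 they read 9.62 to 9.87, 7.45 to 8.09, 5.89 to 6.76 and 4.94 to 5.60. These 4 probe sets did not overlap between the 7 and the 5 arrays, whereas the dimmer GNAS probe set did (7.18 to 7.82 and 7.23 to 8.26). Of all probe sets 12.2% were free of overlap in this way. The EF1A control split the same arrays, at −2.16 to −1.54 and −1.42 to −1.04, but the ACTB control did not, at 0.63 to 1.53 on the 7 and 1.01 to 1.69 on the other 5. The part of RNA or labelling quality in these results was not tested.

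**Figure D3:**
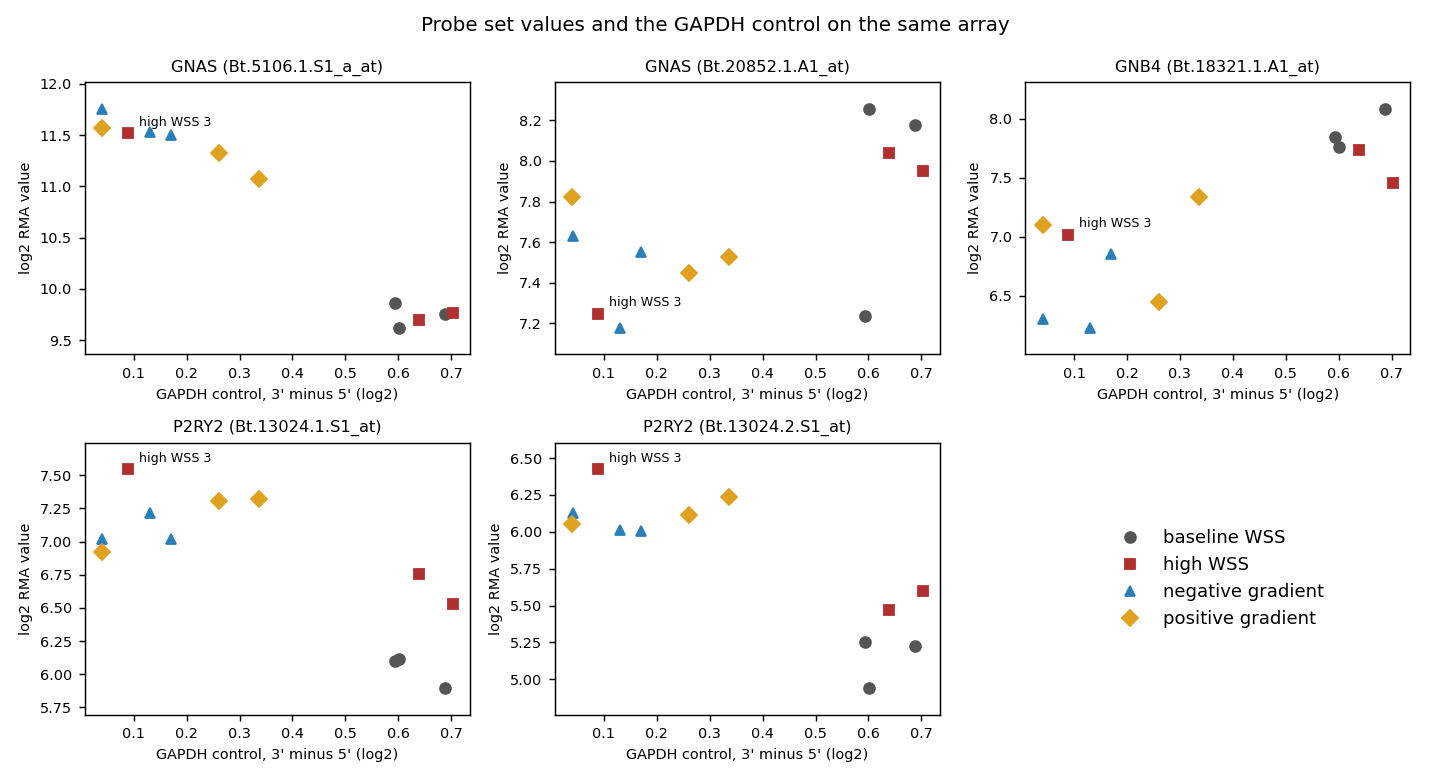
Each panel sets the log2 RMA value of 1 probe set (vertical axis) against the 3′ minus 5′ difference of the GAPDH control on the same array (log2, horizontal axis); symbols mark the flow group and high WSS replicate 3 is labelled. The 7 arrays at 0.34 or below and the 5 at 0.59 or above differ without overlap for all panels except the dimmer GNAS probe set.

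Within the groups at baseline and high WSS, leaving out replicate 3 of high WSS, the GAPDH difference spanned 0.59 to 0.70 on 5 arrays. On these 5 arrays, too few to carry a comparison, P2RY2 read 6.76 and 6.53 at high WSS against 5.89 to 6.11 at baseline at the brighter probe set, and 5.47 and 5.60 against 4.94 to 5.25 at the dimmer. The brighter GNAS probe set read 9.69 and 9.77 against 9.62 to 9.87, and GNB4 7.73 and 7.45 against 7.76 to 8.09. Fibroblast markers ran with GNB4 and against GNAS in part: the mean of the 2 measured ones spanned 9.66 to 9.76 at baseline, 8.85 to 9.73 at high WSS, 8.96 to 9.30 under the negative and 8.95 to 9.22 under the positive gradient. Within this pair THY1, a surface protein of fibroblasts, had group means of 7.39, 6.94, 6.15 and 6.35 in that order, and COL1A2, a collagen chain, 12.05, 11.74, 12.07 and 11.78. The measured smooth muscle pair spanned 6.89 to 7.41 at baseline, 6.71 to 7.54 at high WSS, 7.41 to 8.56 under the negative and 7.0 to 7.90 under the positive gradient. Its genes differed: TAGLN had group means of 9.04, 8.19, 9.95 and 8.61 in that order, and SMTN 5.43, 5.95, 5.94 and 6.16. CD14, the leukocyte marker, spanned 5.15 to 7.99, 3.98 to 6.09, 4.47 to 7.12 and 4.18 to 5.52. The part of other cell types in the values of the 3 genes was not tested.

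The genes most like each member were ranked by Pearson correlation over the 12 arrays, among the other named genes at their brightest probe sets. The points share the 4 groups and the array differences above. The brighter GNAS probe set was most like CRELD1 (r = 0.987), SLC25A6, a mitochondrial carrier of adenine nucleotides (0.987), CCDC71 (0.983), QPCTL (0.982) and PPP4C, a catalytic phosphatase subunit (0.981). Its most opposite genes were AP5M1 (−0.966) and THY1 (−0.961). With the group means removed, these correlations kept their sign, at 0.945 to 0.957 for the 5 and −0.913 and −0.884 for the opposite 2. High WSS replicate 3, at 1.19 above its group mean, had the largest deviation at the GNAS probe set. The values without group means therefore rest mostly on the spread within high WSS and add no separate support. SLC25A6 had group means of 10.89 at baseline, 11.24 at high WSS, 11.73 under the positive and 11.89 under the negative gradient, the order of GNAS.

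For the brighter P2RY2 probe set the nearest were ACTB, cytoplasmic beta actin (0.969), CALM3, a calmodulin gene (0.965), FKBP4 and STIP1, co-chaperones of the HSP90 system (0.961 and 0.955), and TONSL, a factor of replication repair (0.952). FRG1 (−0.975) and SCYL3 (−0.971) were most opposite. ACTB also led for the dimmer P2RY2 probe set (0.967), followed by TNFRSF1B, a receptor of tumour necrosis factor (0.961), HSPBP1 (0.961), NOP9 (0.959) and TIE1, an endothelial receptor tyrosine kinase (0.957), with NSD3 (−0.977) and ATP6V0A2 (−0.968) at the other end. GNB4 was most like SAFB2 (0.926), ZBTB44 (0.913), PALS1, a polarity scaffold (0.909), RPS6KB1, the S6 kinase (0.906), and C7H5orf24 (0.900). Its opposites were ARPC4, a subunit of the actin-branching Arp2/3 complex (−0.957), and ACTR1A, the actin-related protein of dynactin (−0.955). The dimmer GNAS probe set followed other genes, RBMX2 (0.952), RABEP2 (0.941), RPL15P (0.917), SRSF11 (0.917) and COQ2 (0.915), and ran against POR (−0.921) and TSPO (−0.912). Between the members, GNAS at its brighter probe set correlated at 0.824 and 0.899 with the P2RY2 probe sets and at −0.866 with GNB4. The members were chosen by measured values of these arrays, so these correlations are a description and no support. Of the 3976 other named genes, 10.5% had an r above 0.8 with this GNAS probe set.

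Of 265 other genes written down for this pathway in 9 lists, 64 were named on the array. They did not choose the members and were tested. The lists were written with earlier results of these data known, so the shares called are not an independent test. The test was limma, fitted over all 24016 probe sets and adjusted by the Benjamini-Hochberg method, with a call at an adjusted p under 0.05. The annotation names only probe sets of a subset of the deposited values whose rule is not stated, so the share of calls is set beside that of all named genes as well. The positive gradient against baseline had the most calls: 6 pathway genes rose and 4 fell, 15.6% of 64, where 7.01% of all probe sets and 13.9% of the named genes were called. The median log2 difference of the 64 was 0.055, against 0.012 over all probe sets. With the replicate number as a block, which raised the calls over all probe sets too, 16 of the 64 rose and 13 fell. Leaving out positive gradient replicate 1, 2 or 3 left 1, 0 and 0 calls. Leaving out baseline replicate 1 left 4 and baseline replicate 3 left 0. Dropping high WSS replicate 3 raised the count to 15, and that over all probe sets from 1684 to 3248.

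Among receptors, P2RY1, which binds ADP and also couples to Gq proteins, fell under the positive gradient (−0.71, SE 0.197, adjusted p = 0.0487 by limma), as P2RY2 had higher values there. Its baseline arrays read 7.90, 8.44 and 8.29, and the positive gradient arrays 7.30, 7.74 and 7.47. The negative gradient arrays read 8.05, 8.31 and 8.78 and the high WSS arrays 7.16, 7.40 and 7.16. P2RY1 was thus low at high WSS and under the positive gradient and high in the other groups, with high WSS replicate 3 inside its own group. The high WSS difference from baseline was −0.97 (SE 0.197, adjusted p = 0.0543 by limma, and 0.00504 with the replicate block). The negative gradient stood at 1.14 above high WSS (adjusted p = 0.0590 by limma, 0.0186 without high WSS replicate 3), and the positive at −0.88 against the negative gradient (adjusted p = 0.552 by limma, 0.0712 with the block). ACKR3, a scavenging receptor of chemokines, rose by 0.73 under the positive gradient (adjusted p = 0.0415 by limma), and 12 of 13 receptors in its list did not pass. ADA, the enzyme that deaminates adenosine, fell under the positive gradient against baseline (−0.87, adjusted p = 0.0177 by limma). High WSS stood at 0.58 from baseline for ACKR3 and at −0.58 for ADA (adjusted p = 0.177 and 0.114 by limma). The negative gradient stood at 0.41 and −0.12 (adjusted p = 0.223 and 0.667 by limma).

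**Figure D4:**
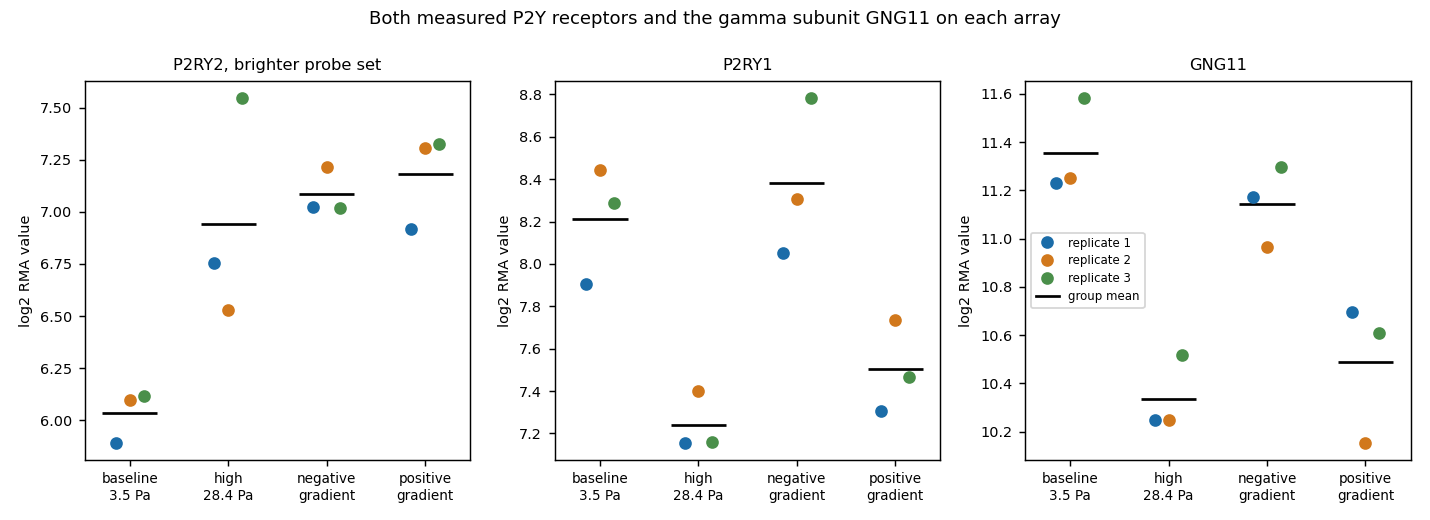
Log2 RMA values (vertical axis) of the brighter P2RY2 probe set, of P2RY1 and of GNG11 on each array, by flow group (horizontal axis); points are arrays coloured by replicate number and black bars are group means. P2RY2 is lowest at baseline, with high WSS replicates 1 and 2 between baseline and the gradient arrays, whereas P2RY1 and GNG11 are low at high WSS and under the positive gradient.

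Of 5 other alpha subunits, 1 rose under the positive gradient: GNA14, of the Gq family (0.61, SE 0.166, adjusted p = 0.0458 by limma). Its differences were 0.68 under the negative gradient and 0.59 at high WSS (adjusted p = 0.0580 and 0.129 by limma, and 0.0303 and 0.0361 with the block). GNA11, another of the Gq family, stood at 0.50, 0.53 and 0.29 for the positive gradient, the negative gradient and high WSS, and GNAI1, an inhibitory alpha subunit, at −0.84, −0.91 and −0.50. Neither passed, at adjusted p-values between 0.0882 and 0.573 by limma; with the block GNAI1 had 0.0301 and 0.0425 against baseline for the gradients. Of 7 other beta and gamma subunits, GNG11, a gamma subunit, fell under the positive gradient (−0.87, SE 0.167, adjusted p = 0.0197 by limma) and at high WSS (−1.02, SE 0.167, adjusted p = 0.0237 by limma). It read 11.23, 11.25 and 11.58 at baseline and 10.25, 10.25 and 10.52 at high WSS. The positive gradient arrays read 10.70, 10.16 and 10.61 and the negative gradient arrays 11.17, 10.97 and 11.30. Its negative gradient difference from baseline was −0.21 (adjusted p = 0.465 by limma). The beta subunits GNB1, GNB2 and GNB5 stood at 0.40, 0.32 and 0.32 for the positive and at 0.39, 0.44 and 0.50 for the negative gradient, where GNB4 stood at −0.94 and −1.44. None of these 3 passed (adjusted p-values of 0.0532 to 0.338 by limma; GNB1 under the positive gradient had 0.0292 with the block).

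**Figure D5:**
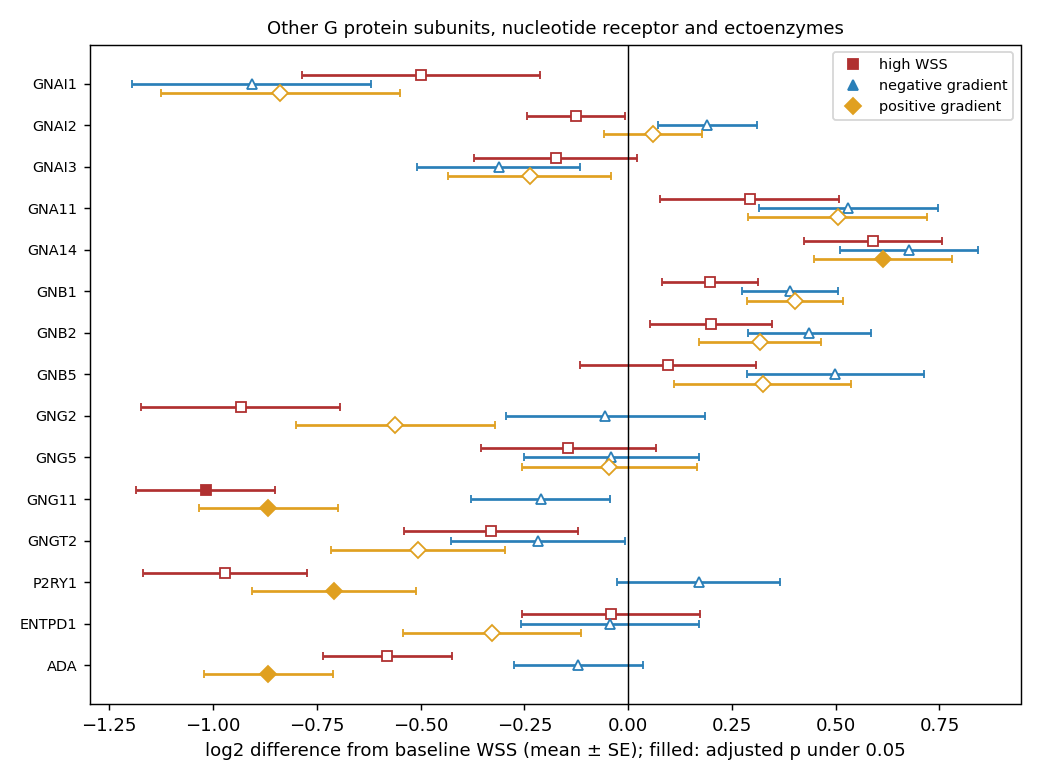
The horizontal axis is the log2 difference from baseline WSS (mean ± SE from the linear model, 3 arrays a group) for 12 other G protein subunits, P2RY1, the ectonucleotidase ENTPD1 and ADA (vertical axis); filled symbols had an adjusted p under 0.05 by limma. Filled are GNA14, GNG11, P2RY1 and ADA under the positive gradient and GNG11 at high WSS.

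Further along the pathway, ORAI1, the pore of the store-operated calcium channel, rose by 1.41 under the positive gradient (SE 0.289, adjusted p = 0.0220 by limma), and its second probe set by 1.94 (adjusted p = 0.0230). The negative gradient stood above baseline by 1.10 and 1.93 at these probe sets (adjusted p = 0.0636 and 0.0389 by limma). CALM3 rose by 0.72 under the positive gradient (adjusted p = 0.0230 by limma), which leaves 10 of 12 genes of the phospholipase C and calcium list without a call there. None of the 9 measured genes of the cyclic AMP list, which follows GNAS, was called in any comparison in the fit of all arrays without the block. With the block AKAP8, a nuclear anchor of protein kinase A (−0.44, adjusted p = 0.0349), and PKIG, an inhibitor of that kinase (0.69, adjusted p = 0.0142), were called by limma for the positive gradient against baseline. Without high WSS replicate 3, PDE8A and PRKAR2A of this list were called between the negative gradient and high WSS. Between the positive gradient and baseline, RGS7, which speeds the shut-off of inhibitory alpha subunits, fell (−0.89, adjusted p = 0.0214 by limma). It was 1 of 8 regulators called there without the block, against 3 with it. NR4A2, a nuclear receptor among 3 measured target genes of the cyclic AMP response factor CREB, rose there by 0.85 (adjusted p = 0.0182 by limma). High WSS against baseline stood at −0.65 for RGS7 and 0.77 for NR4A2 (adjusted p = 0.120 and 0.0543 by limma). The negative gradient against baseline stood at −0.33 and 0.26 (adjusted p = 0.280 and 0.333 by limma).

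The other comparisons had few calls. Against baseline the negative gradient had 1, F2RL2, a protease-activated receptor, which rose by 0.69 (SE 0.154, adjusted p = 0.0466 by limma). That is 1.56% of the 64, with 1.67% of all probe sets and 3.65% of named genes called. With the replicate block, which raised the calls over all probe sets too, 6 of the 64 were called. F2RL2 was not called without any 1 of the baseline or negative gradient arrays. Nor was it called without positive gradient replicate 1 or 2 or high WSS replicate 2. Without high WSS replicate 3 the count was 5, with CALM3, GNA14 and ORAI1 among those added. Over all probe sets the count rose from 401 to 2073 there. High WSS against baseline had 1, GNG11, again 1.56%, beside 0.408% of all probe sets and 1.18% of named genes. With the block, which raised the calls over all probe sets here too, 10 of the 64 were called. The GNG11 call was lost without any 1 array of baseline or high WSS.

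Between the negative gradient and high WSS limma called 0 of the 64 (15 at an unadjusted p under 0.05), beside 0.0958% of all probe sets and 0.302% of named genes. Without high WSS replicate 3, where the count over all probe sets rose from 23 to 1767, it called 8 of the 64. Of these GNG11 (0.90) and P2RY1 (1.10) were higher under the negative gradient, and NR4A2, DUSP1, GRK5, NFATC1, PDE8A and PRKAR2A lower, by −0.96 to −0.45. The positive gradient against high WSS had 0 calls by limma (0 at an unadjusted p under 0.05 among the 64, and 1424 of all probe sets), 0% over all probe sets and over named genes. There the smallest p-values belonged to AKAP8 (−0.31), and ADA (−0.29), each at an adjusted p of 0.790. The positive against the negative gradient likewise had 0 calls by limma, with 9 of the 64 and 1247 of all probe sets at an unadjusted p under 0.05, and its smallest p-values belonged to ADA (−0.75) and P2RY1.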

How the data were processed

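RNA of 12 samples was measured on the Affymetrix bovine array. Its probe set values are log2 RMA values as the authors deposited them; RMA and limma appear, with no version, per the submitters' processing notes. A second deposited table of 7194 probe sets repeats the first, with 0 cells that differ. Without the 112 controls, 24016 probe sets were tested, of which 4726 had 1 symbol and 27 several. By gene number 4715 of the 4726 matched the reference annotation, and 0 symbols changed. The probe set with the highest mean stood for each pathway gene.

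One linear model with a mean per group was fitted to all arrays and probe sets (limma 3.58.1, R 4.3.3; 8 residual and 4.95 prior degrees of freedom), with Benjamini-Hochberg adjustment over all probe sets of a comparison, and was tested on simulated data. Replicate numbers come from the sample titles. Deviations from group means correlated within every number at 0.149 to 0.616 in 5 of the 6 comparisons; for the negative gradient against high WSS number 3 gave −0.079. Alternatives were the replicate block, a variance trend, a filter on dim probe sets, fits of 2 groups, median centring, group medians, every probe set of a gene and leaving out each array; counts of separated groups without high WSS replicate 3 were added after seeing the data. The members and lists were chosen with earlier results of these data known. The named pathway genes were up to 6 called genes with the largest change per comparison, or the 2 smallest p-values where none was called. GNA11, GNA14, GNAI1, GNB1, GNB2, GNB5, CALM3 and ACKR3, P2RY1 against baseline, the genes called without high WSS replicate 3, PKIG and AKAP8 against baseline, and the neighbours of the dimmer probe sets were added after their values were seen. Sequences of these genes and probes were not used here. One called gene of the pathway lists is not reported here.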

Additional observations from a re-analysis of the deposited data

How the results depend on the processing

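With the replicate number as a block, limma called more. It called 6 probe sets between the gradients, and 4074 probe sets and 29 pathway genes for the positive gradient against baseline. Against baseline the negative gradient had 1590 and 6 and high WSS 1294 and 10. Between the negative gradient and high WSS the counts were 1030 and 10. There the deviations correlated at 0.329 and 0.412 in numbers 1 and 2, but not in number 3 (−0.079). With only the 2 groups compared, the positive gradient against baseline had 2551 probe sets, the negative gradient 2 pathway genes, high WSS 0 of either, and the negative gradient against high WSS 0 probe sets. A variance trend gave 2 pathway genes for the negative gradient, 3 genes and 201 probe sets for high WSS, and 2 and 117 between the negative gradient and high WSS. Testing brighter probe sets alone gave 3 and 210, then 2 and 101, in the last pair of comparisons, with fewer tests to adjust for. Counting every probe set of a gene gave 5 for the negative gradient. By group medians the brighter P2RY2 probe set differed by 0.28 between the gradients and by 0.92 between the negative gradient and baseline.
Leaving out each array in turn, the pathway genes called ranged from 0 to 15 for the positive gradient against baseline, 0 to 5 for the negative gradient, 0 to 2 for high WSS and 0 to 8 between the negative gradient and high WSS. The probe sets called ranged from 0 to 3248, 0 to 2073, 17 to 123 and 0 to 1767 in the same order, and from 0 to 342 between the positive gradient and high WSS. The highest of these counts came without high WSS replicate 3, apart from those of high WSS against baseline. The cause of these changes was not tested. Of the 30 differences of the member probe sets, 28 kept their size to within 1 SD between replicates under group medians. All 30 did so under median centring and the block, but this was close to fixed in advance. Every group holds the numbers 1, 2 and 3, so the block changes the errors and not the differences. The array medians, 5.65 to 5.71, left median centring little to move.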

Other observations

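For ITPR1, as for GNAS, the result depended on the probe set. Probe sets of other listed genes also differed in their calls, such as those of ORAI1 for the negative gradient against baseline. ITPR1, a calcium channel of the endoplasmic reticulum opened by inositol trisphosphate, had 3 probe sets, at −0.018, −0.84 and 0.87 for the positive gradient against baseline, with adjusted p-values of 0.970, 0.0154 and 0.0827 by limma. For the negative gradient the second fell by 0.70 on the log2 scale and the third rose by 1.32 (adjusted p = 0.0345 and 0.0440 by limma). The third was dim, with a mean of 4.48 over the 12 arrays, below the array median, where the first and second had 8.35 and 8.33. The gene was singled out after its values were seen.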
